A study of Xenopus laevis with 2 samples.

Results

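Among 8879 transcript rows measured by RNA sequencing in hearts of the frog Xenopus laevis, 206 rows (2.32%) had 0 reads in both libraries of the study. These 206 rows, called silent here, were chosen by that count alone, so their zeros are a description and carry no test. They stood for 182 symbols once the endings that mark gene copies were removed, and for 153 of the 8076 symbols in the table (1.89%) every row was at 0. Roles were given to silent rows after values were seen, and 29 rows were given none. Many silent rows were of genes known from the gastrula, the oocyte, the nervous system and sense organs, endocrine glands, the gut and the kidney. Most listed genes of such tissues had reads, since on 15 tissue lists 59 of 385 measured symbols (15.3%) had every row at 0. A smaller set of silent rows belonged to broadly used cell machinery. There, in several cases, a different row of the same symbol, or a copy with another ending, held many reads.

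The control library came from hearts of embryos that received a control morpholino (control-MO), and the second came from hearts of embryos that received a morpholino against tcf21 (Tcf21-MO), a transcription factor gene of the heart's outer layer. Morpholinos are antisense oligomers made to stop the translation or splicing of a chosen RNA. Both were given at fertilization, and hearts were dissected at stage 44 to 45, when the tadpole heart beats and the embryo has long completed gastrulation. Each group was 1 library of 70 to 100 pooled hearts, so no difference has a replicate check, no p-value is given, and comparisons are between these libraries and not between conditions. The labels do not name the kind of morpholino, and the tcf21 row had 1266 reads in control-MO and 3738 in Tcf21-MO, which does not check the label.

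The control-MO library held 17636925 reads and the Tcf21-MO library 17767221. At that depth a 0 is compatible with as many as 3 counts, or 0.168 CPM (counts divided by effective library size) in control-MO and 0.171 CPM in Tcf21-MO. Per kilobase of transcript, that limit in control-MO ran from 0.0369 CPM per kb for the longest silent row, fam135b at 4551 bp, to 0.473 CPM per kb for the shortest, a row of pgla at 355 bp. The median limit over the silent rows was 0.121 CPM per kb in control-MO and 0.123 in Tcf21-MO, against a median level over all rows of 11.6 and 11.5 CPM per kb. A row at 0 is therefore a transcript not detected at this depth, and in a library of whole hearts a few cells that express a gene and many cells that express little of it cannot be told apart.

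The tissue carried its own markers. Of 28 measured genes on a heart muscle list, none had a silent row, and the lowest, the gap junction gene gja1, had 45 reads in control-MO and 30 in Tcf21-MO. The cardiac transcription factor gene nkx2-5 had 3993 and 2436 reads over 2 rows, and the atrial peptide gene nppa had 12214 and 13636. All 23 measured genes of a housekeeping list also had reads, with the lowest at 336 and 249 for tbp. Skeletal muscle and epidermal lists also had no silent symbol, nor had the lists of neural crest (17 measured genes) and pigment cells (6 measured genes). Of the 20 measured skeletal muscle genes, 19 had 20 reads or more over both libraries. Several are shared with heart muscle, such as ckm with 56592 and 67750 reads. Others on the list with many reads were tnnt3, with 1978 and 1796, and mylpf, with 1741 and 1895. Of the muscle determination genes, myod1 had 18 and 15 reads, myog 26 and 9, and myf5 8 and 3, while myf6 had 114 and 93. Of the 22 measured epidermal and gland genes, the keratin gene krt5 had the most, with 12940 and 15033.

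**Figure D1:**
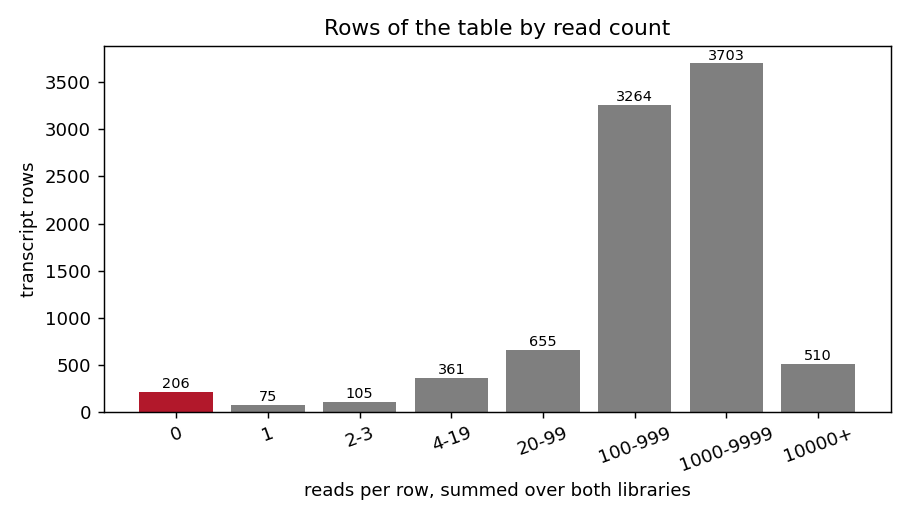
Number of transcript rows (vertical axis) by the reads of a row summed over both libraries (horizontal axis, 8 classes), with the silent class in red. The 206 silent rows outnumber the 75 rows with 1 read, and 8132 rows had 20 reads or more.

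As background, the early Xenopus embryo first runs on RNA and protein stored in the egg. After its own genome is switched on, short-lived transcription factors and secreted signals lay down mesoderm and endoderm, and most of these genes are turned down again once germ layers have formed. Xenopus laevis is an allotetraploid, so many genes exist as a pair of homeologs, one on the L and one on the S subgenome, and several of the early genes also lie in tandem copies. A symbol can therefore have several rows in the table, and a row at 0 need not mean that the gene as a whole was undetected.

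Transcription factors of the early embryo formed the largest group given a role, with 29 silent rows of 23 symbols. Within the groups by role, symbols are counted as deposited, with copy endings kept, which makes 187 in all. Both rows of mix1, a homeobox factor of mesoderm and endoderm induced by activin and Nodal signals, were at 0 in control-MO and in Tcf21-MO. The same held for bix1.1, bix2, bix3 and bix4, relatives of mix1, so that 6 of 7 rows of the mix and bix family were silent and the other, mixer, had 1 read in control-MO and 0 in Tcf21-MO. The Spemann organizer factor sia1 was at 0 in both libraries, while its relative sia2 had 0 and 1 reads. Of the ventx factors, which act on the ventral side of the gastrula, 5 of 7 rows were silent and ventx2.2 had 0 and 2 reads. The exception was the L homeolog of ventx1.1, with 112 reads in control-MO and 90 in Tcf21-MO, or 5.41 and 4.42 CPM per kb.

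Several silent rows were of genes known from the forming mesoderm. Both rows of msgn1 (mesogenin, of presomitic mesoderm) and both rows of mespa (of segmenting somites) were silent. One row of t (brachyury, the classic mesoderm and notochord factor, tbxt in the name table) was at 0 and its S homeolog had 3 reads in control-MO and 0 in Tcf21-MO. The notochord and floor plate factor foxa4 was silent in both rows, and all 3 rows of foxd4l1, a factor of the early neural ectoderm, were silent. The Smad partner foxh1, which carries Nodal signals to their targets, was at 0, with 2 and 0 reads on the row foxh1.2. Besides t, the T-box row tbx6r was silent, as were the caudal rows cdx1 and cdx4. The rows hes7.1, foxi4.2 and the POU factor oct25 completed the group.

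Secreted signals of the gastrula and their partners gave 11 silent rows of 10 symbols. Nodal ligands, the TGF-beta family signals that induce mesoderm and endoderm, had 9 rows, of which nodal2, nodal5, nodal5.2 and both rows of nodal6 were silent. The other 4 nodal rows had between 1 and 7 reads over both libraries, with nodal itself at 4 in control-MO and 3 in Tcf21-MO. Also at 0 were wnt8a, the ventrolateral Wnt ligand of the gastrula, admp, a BMP-type ligand of the organizer, and pnhd, a secreted cystine-knot protein of early mesoderm. For pnhd, a row of 2028 bp, the limit was 0.0828 CPM per kb in control-MO and 0.0843 in Tcf21-MO. The row of fgf4 was silent, and its S homeolog had 5 reads in control-MO and 0 in Tcf21-MO. The Nodal co-receptor row tdgf1 was silent while related rows were not: tdgf3 had 3 and 3 reads, cfc1 had 119 and 72, and tdgf2 had 44 and 8.

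The early genes were not silent as a class. On a list of 58 measured early embryo and organizer genes, 17 (29.3%) had every row at 0, 10 had 1 to 3 reads, 12 had 4 to 19 and 19 had 20 or more, against 1.89% at 0 over all symbols. Among those with 20 or more, the BMP pseudoreceptor gene bambi had 3583 reads in control-MO and 4171 in Tcf21-MO, the Wnt inhibitor genes frzb and dkk1 had 869 and 1418, and 775 and 665, and the BMP antagonist gene chrd had 88 and 134. The organizer homeobox gene gsc had 147 reads in each library. Of other secreted antagonists on the list, nog had 215 reads in control-MO and 191 in Tcf21-MO, and lefty had 42 and 14. Lower still or similar were cer1 with 34 and 25 reads, szl with 24 and 18, and dand5 with 1 read over both libraries.

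Oocyte, egg coat and germ line genes accounted for 17 silent rows of 16 symbols. Silent among them were velo1, the germ plasm organizer of the oocyte, zar1, a regulator of maternal RNA, and both rows of btg4, which in mammals directs the clearance of maternal RNA. Its relatives btg1 and btg2, general antiproliferative genes, had 4885 and 5595, and 495 and 537 reads. Rows of patl2 and pabpn1l, regulators of RNA in oocytes, were at 0, and the S homeolog of pabpn1l had 2 reads in control-MO and 1 in Tcf21-MO. Also at 0 were tbpl2, a TATA-binding protein form of oocytes, and oct60, a maternal POU factor. The egg coat gave 3 silent rows of 6, zp2, zpax and a row of zp4, and the other 3 had 3 to 8 reads over both libraries. Rows of germ cell genes at 0 were asz1 and exd1, both of the piRNA pathway, and the sperm genes zpbp2, acr and slc25a31. The row crisp2, a sperm gene by its deposited symbol, was also at 0 and is called crisp1.5 in the name table.

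On the list of maternal and germ line genes, 7 of 36 measured symbols (19.4%) had every row at 0, 5 had 1 to 3 reads, 8 had 4 to 19 and 16 had 20 or more. The germ line RNA helicase gene ddx4 had 820 reads in control-MO and 881 in Tcf21-MO, and ybx2, an RNA-binding protein of germ cells, had 678 and 539. For helicase subunits that license DNA replication, maternal and zygotic forms are known in Xenopus. The silent row mcm3 is listed in the name table as a gene apart from zmcm3, which was not analysed here. The row mcm6, for which the name table gives mmcm6 as a synonym, had 0 and 2 reads. The row mcm6.2, which has zmcm6 among its synonyms, had 1803 and 1714 reads on its L row and 1017 and 900 on its S row. Of 11 rows for MCM2 to MCM7, the 9 others had 1370 to 5680 reads over both libraries.

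Neural, eye and placode transcription factors gave 24 silent rows of 19 symbols. Both rows of pax6, the regulator of eye and forebrain, were at 0, with limits of 0.0742 CPM per kb in control-MO for the L row and 0.0848 for the S row. Both rows of vax1 and of vax2, factors of the ventral forebrain and eye, were at 0, as were both of hesx1, a factor of the anterior neural plate and pituitary. The proneural factor neurog2 was silent in both rows, and neurod4 and neurod6 in 1 row each. A related gene stood out on the other side: neurog3, known from endocrine pancreas, had 436 reads in control-MO and 291 in Tcf21-MO, or 16.8 and 11.4 CPM per kb. The remaining rows were arx, with 5 and 1 reads on its L homeolog, ascl2, with 0 and 3 reads on its L homeolog, and barhl2, dmrta2, fezf1, foxb2, foxe3, lbx1, nkx1-2, nkx2-4, tlx3 and vsx1.

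Over a list of 65 measured neural transcription factors, 10 (15.4%) had every row at 0, 10 had 1 to 3 reads, 24 had 4 to 19 reads and 21 had 20 or more. The most reads were on emx2, with 1152 and 808 reads, and lhx5, with 937 and 703. Neuronal channels, receptors and transporters added 6 silent rows. These were the delayed rectifier potassium channel genes kcnb2 and kcna2, the serotonin receptor gene htr1a, the cannabinoid receptor gene cnr1, the orphan receptor gene gpr12, and slc17a6, a vesicular glutamate transporter that the name table calls slc17a7. On the list of neuronal channel and synapse genes, 5 of 31 (16.1%) had every row at 0, 7 had 1 to 3 reads, 9 had 4 to 19 and 10 had 20 or more, with a median of 6 reads. The synaptic vesicle gene syt1 had the most reads, 353 and 206.

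Sense organ genes gave 9 silent rows. Both rows of omp, the marker of mature olfactory neurons, an olfactory receptor row (or52r1) and ptgds, which the name table calls obp for odorant-binding protein, were at 0. Silent lens crystallins were crybb1, crygc and crygd, and silent photoreceptor rows were rom1, of the outer segment disc, and a row of the cone opsin kinase gene grk7. On the list of photoreceptor and lens genes, 3 of 31 symbols (9.68%) had every row at 0, 6 had 1 to 3 reads, 10 had 4 to 19 and 12 had 20 or more, with a median of 17 reads. The members with the most reads were the cone opsin gene opn1lw, with 175 reads in control-MO and 123 in Tcf21-MO, and crygb, with 92 and 105.

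Peptide hormones gave 13 silent rows of 11 symbols. Both rows deposited as gh1 (growth hormone) were at 0, and the name table calls 1 of them gh2. Both rows of ins (insulin) were also at 0, as were prl.1 and prl.2 (prolactin). Of the receptors of these hormones, those of growth hormone and prolactin were looked up. The ghr row had 91 reads in control-MO and 114 in Tcf21-MO, and the prlr rows had 17 and 26, and 4 and 17. Hypothalamic and gut peptides at 0 were kiss1, ghrh, ucn3, gip and 1 row each of npy, cck and gal.2. For npy and cck the L homeolog was near 0 too, with 0 and 3 reads, and 1 and 0 reads. On a list of 24 measured hormone genes, 5 (20.8%) had every row at 0, 6 had 1 to 3 reads, 5 had 4 to 19 and 8 had 20 or more. The pituitary hormone genes among them included fshb, with 586 reads in control-MO and 429 in Tcf21-MO, and pomc, with 73 and 3.

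Peptides of the granular skin glands, which store antimicrobial and bioactive peptides in the skin of metamorphosed frogs, were mostly not detected. Of 9 rows, 7 were silent: both rows of levi (levitide and xenopsin precursors), both rows of pgla, and pgq, xenoxin-1 and a row of xt6l, a caerulein precursor. The other xt6l row had 1 read in each library and magainins had 8 reads in control-MO and 7 in Tcf21-MO. These were also short rows, from 355 to 834 bp for the silent ones, so their limits were among the highest, up to 0.473 CPM per kb in control-MO.

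Digestive, liver and steroid genes gave 13 silent rows. The pancreatic protease rows ctrb2, cela3b, prss1.2 and prss3, and tmprss15, the enteropeptidase that activates trypsinogen, were at 0. Relatives of these proteases had reads and were not higher in Tcf21-MO: ctrb1 had 122 reads in control-MO and 51 in Tcf21-MO, cela1 had 56 and 17, and prss2 had 270 and 248. The ctrb1 row was 2.34-fold lower in Tcf21-MO (95% counting interval 1.68 to 3.32) and the cela1 row 3.17-fold lower (1.85 to 5.94). The apob row, of 1642 bp, was at 0. Others at 0 included alpi.1 (intestinal alkaline phosphatase), a4gnt of the stomach lining, serpina6, cyp2a6 and cyp21a2.1, an enzyme of adrenal steroid synthesis. The row tff2, of the stomach lining by its deposited symbol, was at 0 too and is called tff3.8 in the name table. On the list, 4 of 36 measured gut, pancreas, liver and yolk genes (11.1%) had every row at 0 and 20 had 20 reads or more. The yolk protein precursor gene vtgb1 had the most, with 548 and 317.

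Kidney and epithelial transport gave 7 silent rows, among them aqp2, the vasopressin-regulated water channel, kcnj1, a potassium channel of the distal nephron, and slc5a8, a monocarboxylate transporter. On the pronephros list 3 of 14 (21.4%) had every row at 0 and 9 had 20 reads or more. The most were on aqp3, which is also expressed outside the kidney, with 1016 reads in control-MO and 771 in Tcf21-MO. The sodium channel subunit row scnn1g was at 0 on L, while its S homeolog had 155 and 97 reads. The other rows of the group were slc7a13, miox and slc13a5. Lymphoid genes gave 5 silent rows, among them prf1 and faslg, effectors of cytotoxic lymphocytes, crtam, and dntt, which adds bases at the joints of antigen receptor genes. On the lymphoid list 3 of 13 (23.1%) had every row at 0 and 7 had 20 reads or more, and rag2, the recombinase partner, had 30 and 37 reads. The group formed for skin, tooth and cartilage held 8 silent rows. These were krt24, krt17, serpinb5, cnfn.2, the enamel genes ambn and mmp20, clec3a and cldn14. The claudin gene cldn14 was counted here but is not particular to these tissues.

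**Figure D2:**
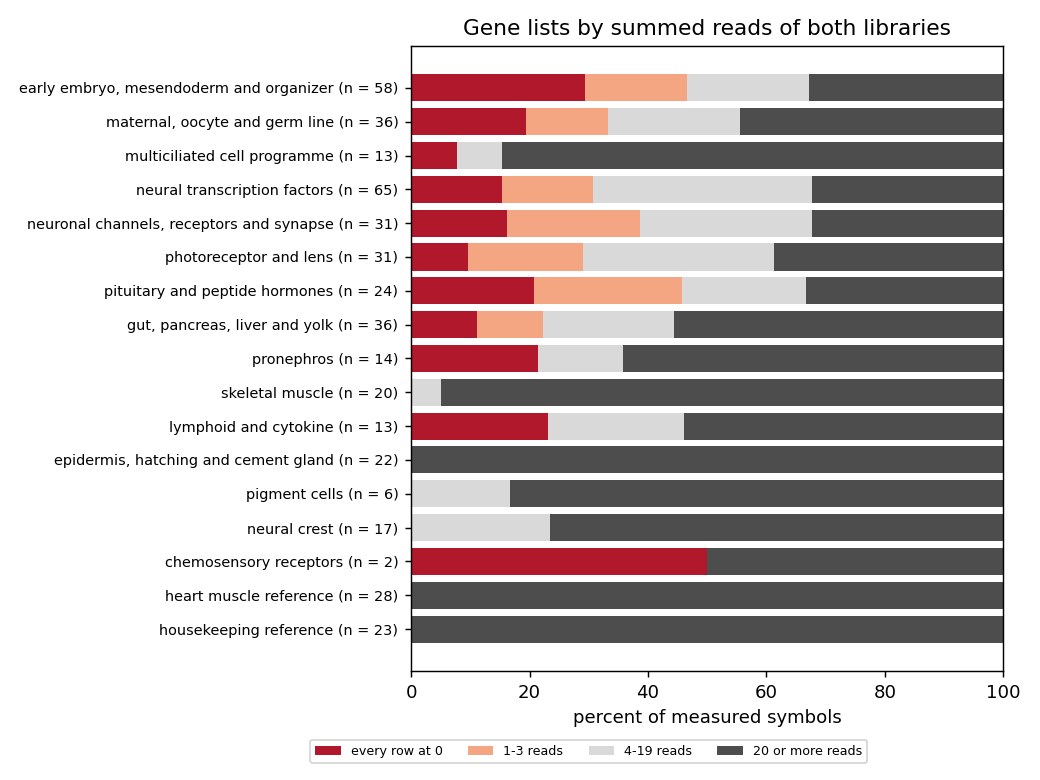
Share of measured symbols (horizontal axis, percent) of 17 gene lists (vertical axis, n in brackets) by reads summed over both libraries and over the rows of a symbol. Red marks symbols with every row at 0: 17 of 58 early embryo symbols are red, and none of the 28 heart muscle or 23 housekeeping symbols is.

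Transcription factors of other organs gave 12 silent rows. Among them was gemc1 (gmnc in the name table), which starts the multiciliated cell programme, at 0 in a row of 1005 bp with a limit of 0.167 CPM per kb in control-MO and 0.170 in Tcf21-MO. The other 12 measured genes of that programme had reads: foxj1, the master factor of motile cilia, had 78 in control-MO and 56 in Tcf21-MO, rfx2 had 229 and 231, and the dynein assembly gene zmynd10 had 340 and 362. The cyclin gene ccno, which acts in multiciliated cells, was low at 2 and 8 reads. Also silent were pax8, of kidney and thyroid, rfx6, of endocrine pancreas, nkx6-3 and mkx, a tendon factor. So were the steroid receptor rows esr2 and pgr, the second with 0 and 2 reads on another row.

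The last members of that group were hoxa13 and hoxd13, homeobox genes of the tail end of the body and the distal limb. Hox genes are numbered by paralogous group, and groups with low numbers are expressed further towards the head. The 8 rows of groups 1 to 4 had a median of 0.528 CPM per kb in control-MO and 0.882 in Tcf21-MO, and none was silent. The highest was hoxa3, with 178 and 141 reads, or 4.36 and 3.52 CPM per kb, and the lowest was hoxd1, with 6 and 0 reads. The 8 rows of groups 5 to 8 had medians of 0.0623 and 0.0583 CPM per kb, and the 7 rows of groups 9 to 13 had 0.0638 and 0. In the last class, 2 rows were silent and the highest, hoxd10, had 4 reads in control-MO and 12 in Tcf21-MO. The silent rows hoxa13 and hoxd13 are short, at 888 and 855 bp. Their limits in control-MO were 0.189 and 0.196 CPM per kb, above the control-MO medians of groups 5 to 8 and 9 to 13. Their zeros therefore do not place them below those medians. This grouping of Hox rows was made after their values were seen.

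**Figure D3:**
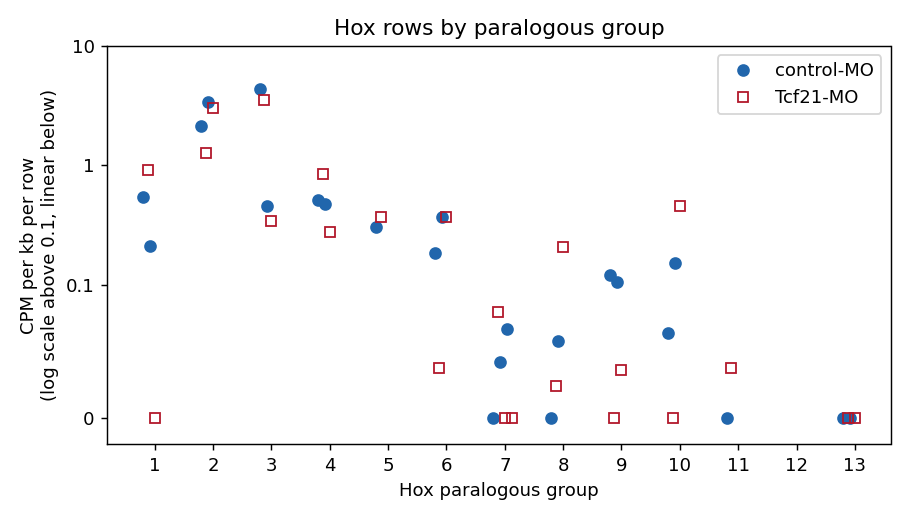
Level of each of 23 Hox rows in CPM per kb (vertical axis, logarithmic above 0.1 and linear below) against its paralogous group (horizontal axis), with filled circles for control-MO and open squares for Tcf21-MO. Rows of groups 1 to 4 reach 4.36 CPM per kb. Both rows of group 13, hoxa13 and hoxd13, lie at 0, with limits of 0.189 and 0.196 CPM per kb in control-MO.

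A few silent rows bear names of genes that are heart or muscle forms in mammals. The row kcne1, an accessory subunit of the potassium channel Kcnq1 that carries a slow repolarizing current in the mammalian heart, was at 0 in both libraries. The channel itself was detected, with 765 reads for kcnq1 in control-MO and 594 in Tcf21-MO, or 16.7 and 13.2 CPM per kb. It was 1.26-fold lower in Tcf21-MO (1.13 to 1.41). Another subunit of the same family, kcne3, had 11 and 45 reads and was 4.03-fold higher (2.12 to 8.93). The kcne1 row is one of the shortest, at 387 bp, which sets its limit at 0.434 CPM per kb in control-MO and 0.442 in Tcf21-MO.

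The second was cox6a2, the heart and muscle form of a cytochrome c oxidase subunit in mammals, at 0 in a row of 555 bp with limits of 0.303 and 0.308 CPM per kb. The form that mammals use in other tissues, cox6a1, had 10412 reads in control-MO and 12029 in Tcf21-MO on its L row, or 1121 and 1319 CPM per kb, and 4635 and 6194 on its S row. The third, ucp3, is named ucp1 in the name table and belongs to the mitochondrial uncoupling proteins. Its L homeolog had 0 and 2 reads, and ucp2 had 9471 and 12177.

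Broadly used cell machinery gave 13 silent rows. For rpl19 and ube2s among them, the label of silent transcripts fits the row and not the symbol. The ribosomal protein row rpl19 was at 0, while another row of the same symbol had 39921 reads in control-MO and 40225 in Tcf21-MO. The elongation factor row eef2.2 was at 0 and eef2.1 had 157265 and 166367. For ube2s, a ubiquitin-conjugating enzyme, the second row had 1008 and 790 reads, and beside the topoisomerase row top1.2, top1.1 had 1430 and 1200. The copies eef2.1 and top1.1 can be separate genes. Heat shock row hspa1b was at 0. The related genes hspa1a, hspa1l and hspa8 had 443 and 328, 122145 and 108783, and 32298 and 28181 reads. The chromosomal passenger row cdca9 was at 0, and its relative cdca8, a different gene, had 1272 and 1126. The rows cdca9, dcaf15, gnb2l1, hspa1b, ilvbl, mcm3, polr3g and rnf138 had no other row of their symbol.

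Of these 13 rows, 7 had no record in the RefSeq name table (dcaf15, eef2.2, gnb2l1, hspa1b, ilvbl, rpl19 and ube2s), against 9 of the other 193 silent rows. Over the whole table, 564 of 8879 rows (6.35%) had no record, and 16 of 206 silent rows (7.77%). The 6 with a record were cdca9, creb3, mcm3, polr3g, rnf138 and top1.2. The row creb3 is called thibz in the name table, a thyroid hormone-induced factor, so its symbol partner with 496 and 677 reads is a different gene there. The S homeolog of thibz had 0 reads in control-MO and 2 in Tcf21-MO. How the authors counted reads that match several rows is not given in the sources used here, and the part of that step in these zeros was not tested.

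Whether a second row of the same symbol, with copy endings removed, was expressed was asked for all 206 rows. Of these, 133 were the only row of their deposited symbol and 73 had at least 1 other row. The 133 include tdgf1, for which the name table lists cfc1, tdgf2 and tdgf3 as copies. Pairing by the name table symbol gave 36 silent rows with reads on another row, in place of 32. For 41 rows, of 20 symbols, every other row was silent too, including both rows of mix1, msgn1, mespa, foxa4, pax6, vax1, vax2, neurog2, hesx1, btg4, ins, gh1, omp, levi and pgla. For gh1 and levi, the name table lists the rows as different genes. For 20 rows, of 19 symbols, the other rows held 1 to 9 reads over both libraries, as for arx, fgf4, npy, t and zp4. For the last 12 rows, of 10 symbols, another row had at least 20 reads. That row bore the exact deposited symbol for rpl19, ube2s, scnn1g, ventx1.1 and creb3, and for creb3 it is another gene in the name table. For the remaining rows it was a copy with a different ending, which can be a separate gene.

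Those 10 symbols were eef2, rpl19, top1, bmp7, ube2s, zfp36l2, creb3, cnfn, scnn1g and ventx1. Beside the silent bmp7.2 row, the BMP ligand row bmp7.1 had 1404 reads in control-MO and 773 in Tcf21-MO, or 0.561 of the control level (0.513 to 0.613). Beside the silent rows zfp36l2.1 and zfp36l2.2, of an RNA-decay factor, zfp36l2 had 774 and 936 reads on L and 526 and 660 on S. Beside cnfn.2, of a cornified envelope protein, cnfn.1 had 117 and 308 reads on L and 246 and 414 on S. Of the 12 distinct rows with at least 20 reads, the L row of cnfn.1 passed 2-fold with an interval that excludes 1, at 2.67-fold higher (2.16 to 3.35). No other row passed in either direction, while 217 of 8132 rows compared across all symbols (2.67%) passed as higher and 195 (2.40%) as lower.

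**Figure D4:**
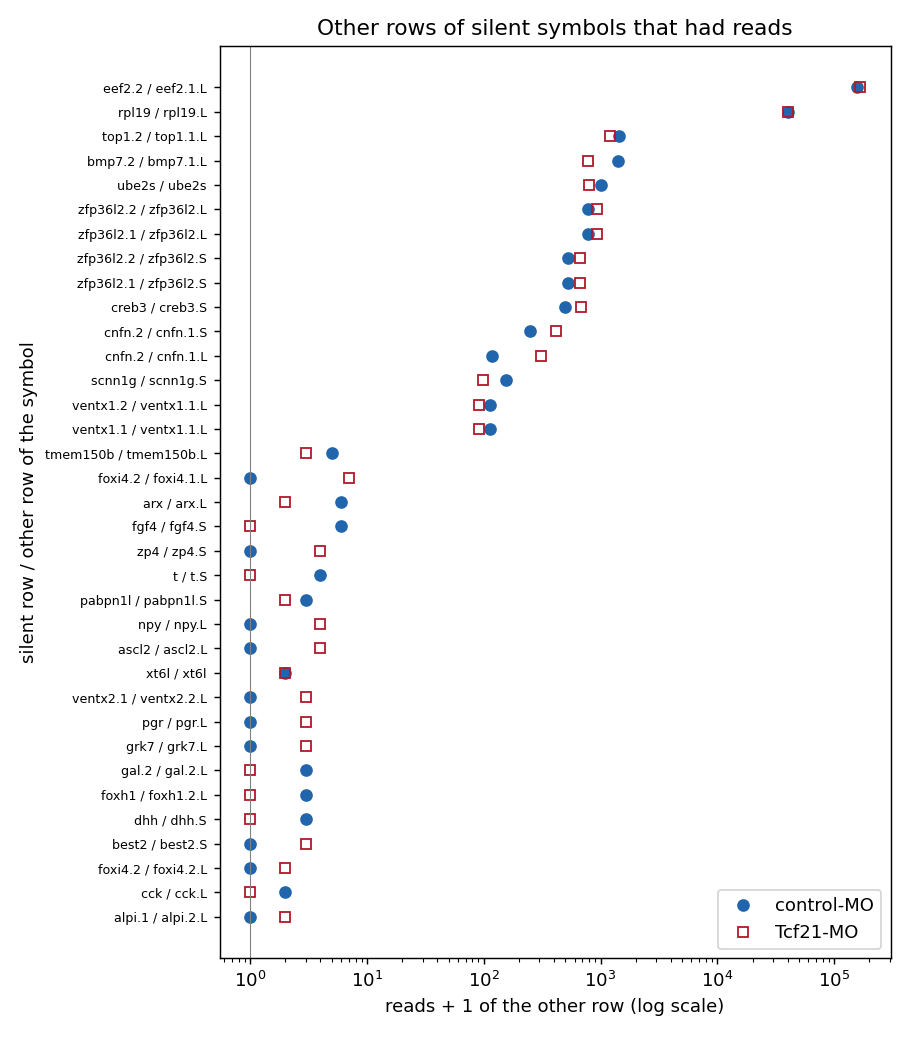
Reads plus 1 (horizontal axis, log scale) of each row with reads that shares a symbol, without copy endings, with a silent row. The silent row is named first on the vertical axis, with 1 mark per library. A row that shares its symbol with several silent rows appears once for each. Values split into a low group of at most 6 reads per library and a high group from cnfn.1, scnn1g and ventx1.1 up to eef2.1 with 157265 and 166367.

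Pairing rows as homeologs by the name table mostly recounted the silent rows above, so it is not a separate result. Of 648 pairs with both rows in the table, 16 had both at 0 and 17 had exactly 1 at 0. In 15 of those 17 the other homeolog had under 10 reads over both libraries, and in 2 it had 20 or more, scnn1g and ventx1.1. Silent rows were placed on L in 123 cases and on S in 67, a share of 35.3% on S against 38.1% over all placed rows. Of the 190 placed silent rows, 109 have another homeolog in the name table, and for 60 of them, such as gemc1, pnhd and wnt8a, that homeolog has no row here and was not analysed.

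Silent rows were shorter than others. Their median length was 1394 bp, against 2008 bp over all rows, 1608 bp for rows with 1 to 3 reads and 2055 bp for rows with 20 or more. When all rows were cut by length at the quartiles, the silent share from the shortest to the longest class was 4.73%, 2.57%, 1.62% and 0.361%. At equal abundance a shorter transcript yields fewer reads, and the part of length in the zeros was not tested.

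**Figure D5:**
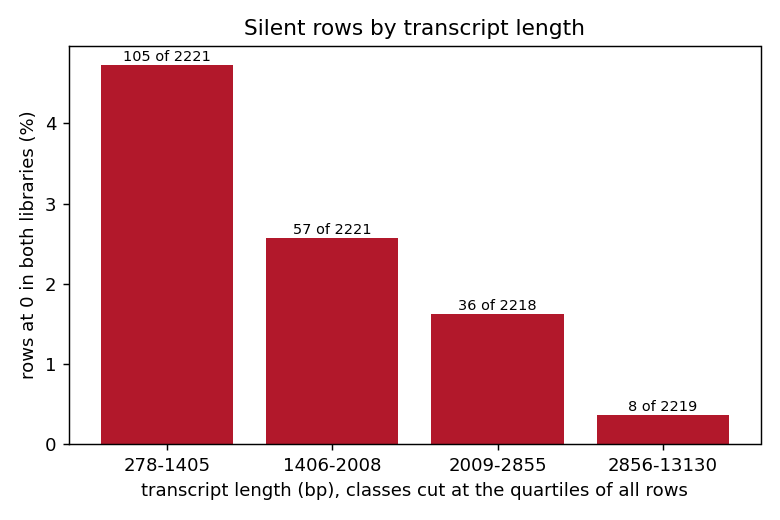
Share of rows that were silent (vertical axis, percent) in 4 classes of all rows cut at the quartiles of transcript length in bp (horizontal axis), with the number of silent rows above each bar. The share falls from 105 of 2221 rows in the shortest class to 8 of 2219 in the longest.

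Some silent rows also lay beside each other in the gene order of the name table. Counting silent rows separated by at most 3 protein-coding genes as neighbours, 30 of 190 placed rows fell into 11 runs. No such count was made for other sets of rows, so whether this share is unusual was not tested. The longest held 5 skin gland peptide rows, pgla, pgq, levi, levi and xt6l. Others were ventx3.2, ventx1.2, ventx1.1 and ventx2.1 on S, nodal5, nodal5.2 and nodal6 on L, bix1.1, bix3 and mix1 on L, and mix1, bix2 and bix4 on S. Most runs thus hold tandem copies of a family, but msgn1 with zpax, slc7a2.2 with zp4 and vsx1 with baf-l are not relatives.

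Just outside the rule, a single read over both libraries was counted for 75 rows, 24 times in control-MO and 51 times in Tcf21-MO. Of these 75 rows, 25 were on one of the gene lists, among them the early genes mixer, sia2, gdf1, dand5, fgf20 and tbx6, the oocyte genes figla, kpna7 and npm2, and the neural genes fezf2, nkx2-1, nkx2-2, pax2 and sox14. A further 56 rows had 2 reads and 49 had 3. Over the 15 tissue lists, 59 of 385 symbols (15.3%) had every row at 0, against 94 of 7640 symbols (1.23%) on no list. The lists were drawn up with earlier results of these data known, so this difference is a description. No role was given to the other 29 silent rows, among them the hedgehog ligand row dhh, with 2 and 0 reads on its S homeolog, best2, spire1, csmd1, prom2 and slc7a2.2.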

How the data were processed

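PolyA RNA libraries of 2 groups, 1 library each, were read from 1 table. The authors deposited raw read counts for 8879 RefSeq transcripts, with symbol and length in bp, another kind of value, per the file headers. Bowtie2 2.0.0.6, SAMtools 0.1.18.0 and CASAVA 1.7 appear, with no role, per the submitters' processing notes. The genome build, the counting rule and the handling of multi-matching reads were not given in the sources used here. The authors' normalized control values, 1 per-sample column, and their fold changes were not used. No sample was left out.

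Scaling used TMM factors from edgeR 4.0.16 in R 4.3.3. The log2 ratio had 0.5 counts added. Its 95% Clopper-Pearson interval, like the limit of 3 counts for a 0, covers counting error only, since reads are not independent molecules. Rows with at least 20 reads over both libraries were compared, and a row passed at 2-fold with an interval that excludes 1. The calculation was tested on simulated data. Levels between genes are CPM per kb.

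Rows were paired by symbol without copy endings. A name table (assembly version 10.1) held 8315 of 8879 rows and served for names and gene order only. Its symbols differed for 23 silent rows.

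The silent rows, the gene lists and the question were chosen with earlier results of these data known. Named genes were silent rows on a list, rows with a role known from their name, other rows of their symbols, and listed rows with 1 read. Roles, families, related genes and the detected list members in the text were picked after values were seen. Alternatives are under the closing section. Some genes that this rule selects are left out of the text.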

Additional observations from a re-analysis of the deposited data

How the results depend on the processing

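Allowing at most 3 reads over both libraries in place of 0 gave 386 rows in place of 206, and 107 listed symbols in place of 59. Counting a second row as expressed only from 20 reads gave 12 silent rows in place of 32, and from 1 CPM in both libraries also 12. Pairing rows by the exact deposited symbol, an alternative chosen after seeing the data, gave 21. The other 15 values of these counts under alternatives were within 1.5 times their main count, among them 281 rows at most 1 read, 308 rows at 0 in control-MO alone, 282 at 0 in Tcf21-MO alone and 145 of at least 1000 bp. The number of rows past 2-fold ranged from 196 to 233 higher and from 196 to 223 lower under total-count scaling, DESeq2 size factors (DESeq2 1.42.0) and no read floor. No paired analysis was possible because each group is 1 library. For the same reason no library could be left out. Depth limits each zero to the stated 3 counts, and short rows have the highest limits per kb.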

Other observations

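A total of 178 rows were at 0 in exactly 1 library, 102 in control-MO and 76 in Tcf21-MO. Of these, 11 had at least 7 reads in the other library. The amylase row amy2b had 21 reads in control-MO and 0 in Tcf21-MO, and the homeobox row gbx2.1 had 0 and 18. The monoamine transporter row slc18a1 had 15 and 0 reads, pcsk4 had 0 and 13, and the rod opsin row rho had 10 and 0. The rows amy2a, drd2 and zic2 had 8 and 0, and aldh3b1, en2 and fcn2 had 7 and 0. These are values of rows and not of symbols. Over 2 rows each, gbx2 had 3 reads in control-MO and 22 in Tcf21-MO, and en2 had 7 and 1. Each value rests on 1 library per group.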
